A study of Mus musculus with 8 samples.

Results

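The vascular endothelial growth factor (VEGF) family was read here as 10 genes: the ligands Vegfa, Vegfb, Vegfc, Figf (current symbol Vegfd) and Pgf, the receptors Flt1, Kdr and Flt4, and the co-receptors Nrp1 and Nrp2. They were found by name, through the RefSeq accession that the array files give for each probe. They are 10 of the 20145 genes that could be named on the array and 13 of its 55681 non-control probes. Vegfa, Kdr and Nrp2 have 2 probes each and the other 7 genes have 1. All 13 probes were well above background on all 8 arrays, so every member was measured in every sample.

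The tumours grew from cells of the mouse mammary carcinoma line 4T1 that were infected for 24 h at a multiplicity of infection of 50 before they were placed in the no. 3 fat pad of female BALB/C mice aged 6 to 8 weeks. The control group (4 arrays) received empty adenovirus and the other group (4 arrays) received Adenoviral-PRH, a virus carrying PRH, the homeodomain transcription repressor encoded by Hhex. Tumours were taken 22 days later, and total RNA labelled with Cy3 was put on 1-colour Agilent arrays that carry mouse probes. Both groups thus share the cell line, the adenoviral backbone, the site and the time. No group was grown from uninfected 4T1 cells. The virus was given to the cells in culture only, and the labels do not say how long its genome persisted. The labels name RNA of each tumour in one field and of endothelial isolates in another, and which was on the arrays is not settled. In either case, fewer cells of a type and less RNA per cell cannot be told apart. Arrays are numbered by mouse (1, 2, 3 and 5 in each group), and values are always given in that order.

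VEGF ligands are secreted dimers that tumour and stromal cells make, in large part under hypoxia. They act on receptor tyrosine kinases that sit mainly on endothelial cells. Kdr (VEGFR2) carries most of the signal for endothelial growth, permeability and migration. Flt1 (VEGFR1) binds Vegfa tightly but signals weakly and is often a decoy, and Flt4 (VEGFR3) serves the lymphatic vessels. Neuropilins bind VEGF beside the kinases and also receive class 3 semaphorins. PRH has been described as a repressor of VEGF pathway genes in cultured cells, and the comparison asks how the family's RNA differs with the PRH label.

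The check of the agent went against the label. The Hhex probe read -0.54, -0.33, -0.69 and -0.78 on the control arrays and -1.71, -1.46, -1.79 and -1.72 on the arrays labelled PRH. These values, and all levels below, are log2 of the processed signal relative to the array's 75th percentile. Hhex was thus 2.13-fold lower with the PRH label (-1.09, SE 0.148, adjusted p = 0.00674 with limma), with no overlap between groups. Whether this probe reads RNA made from the virus, and whether the group labels were exchanged, was not tested. The second group is therefore called PRH-labelled throughout, and every direction below rests on the labels as given: exchanged labels would turn each sign. Control arrays filled slide column 2 and PRH-labelled arrays slide column 1, so group and slide column cannot be told apart. The 75th percentile itself lay between 1002.89 and 1282.57 on control arrays and between 679.1 and 761.55 on PRH-labelled ones. The share of probes well above background lay between 64.17% and 69.76% on control arrays and between 72.22% and 73.9% on PRH-labelled ones. Neither measure overlapped between groups (exact two-sided permutation p = 0.0286 for each), and their part in the differences of dim probes was not tested. The median difference over all tested probes was 0.22 on this scale, -0.25 with arrays centred on the median, and 0.01 after quantile normalization, and the members' differences are to be read against those shifts.

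One member probe passed the test. The brighter of the Kdr probes was higher on PRH-labelled arrays, while no probe of any ligand, of Flt1, of Flt4 or of either neuropilin reached an adjusted p of 0.05. That is 1 of 13 probes (7.69%), where 26.2% of all 39463 tested probes were called, 16.1% as higher and 10.1% as lower. At an unadjusted p under 0.05 the count was 4 of 13, against 39.2% of all tested probes. The groups did not overlap at 2 member probes, Pgf and the brighter Kdr probe, against 31.5% of all tested probes. Differences were positive at 5 member probes and negative at 8, with a median of -0.06. The members were therefore called less often than the array at large on this scale, a description with no test. The size of that shortfall changed with the scaling, and the counts are given under processing below. With mouse number as a block 34.4% of all tested probes were called and, of the members, again the brighter Kdr probe alone.

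**Figure D1:**
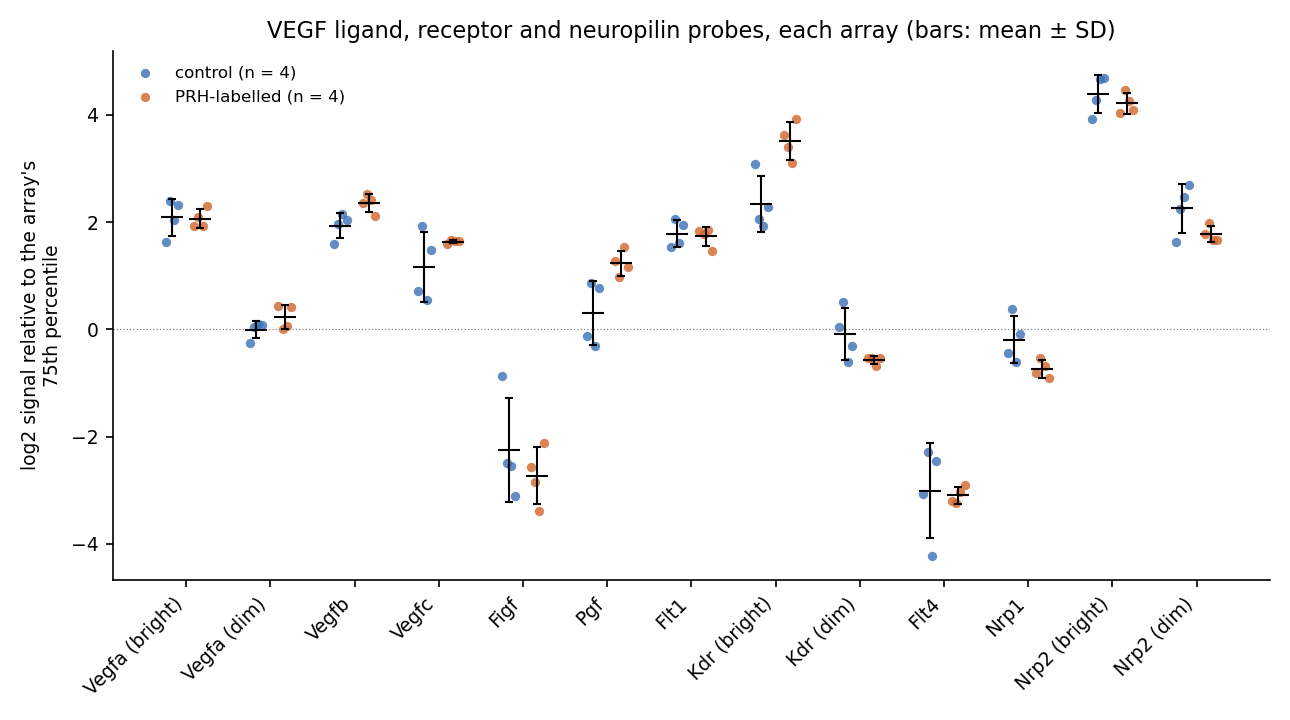
Log2 level relative to the array's 75th percentile (vertical axis) of the 13 probes of the 10 genes, with 1 point for each array, 4 control and 4 PRH-labelled, and bars for the group mean ± SD. The groups are apart at Pgf and at the brighter Kdr probe, and control points are spread more widely at most probes.

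Among the ligands, Vegfa, the main angiogenic factor, showed no detectable difference. Its brighter probe read 1.62, 2.39, 2.04 and 2.31 on control arrays and 1.92, 2.09, 1.93 and 2.30 on PRH-labelled arrays. Means were 2.09 ± 0.35 (SD, n = 4) and 2.06 ± 0.18, and the PRH-labelled values lay wholly inside the control range. The difference was -0.03 (SE 0.201, 95% interval -0.50 to 0.43, adjusted p = 0.919), so that changes larger than 0.50 in either direction lay outside the interval. Its dimmer probe, matched to another Vegfa transcript accession, read -0.25, 0.04, 0.10 and 0.09 against 0.43, 0.01, 0.07 and 0.41. The difference there was 0.23 (SE 0.159, 95% interval -0.13 to 0.60, adjusted p = 0.306). PRH-labelled arrays 1 and 5 stood above the control arrays at this probe and the other two lay among them.

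Vegfb, a ligand of Flt1 known for its part in lipid uptake and vessel survival, read 1.60, 1.96, 2.15 and 2.03 on control arrays. On PRH-labelled arrays it read 2.36, 2.53, 2.41 and 2.12, of which only array 5 fell within the control range. The difference of 0.42 (SE 0.165, 95% interval 0.04 to 0.80) had an adjusted p of 0.100. It was called at 0.51 after quantile normalization (adjusted p = 0.0242) and at 0.51 after cyclic loess (adjusted p = 0.0268), and it turned to -0.05 with median centring.

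Vegfc and Figf are the ligands of Flt4 and drive lymphatic growth. Vegfc read 0.72, 1.93, 0.54 and 1.48 on control arrays and 1.59, 1.67, 1.64 and 1.65 on PRH-labelled arrays. The PRH-labelled values spanned a narrow band (1.64 ± 0.03) inside a wide control range (1.17 ± 0.65). The difference of 0.47 (SE 0.306, adjusted p = 0.291) was within that spread, was 0.72 without control array 2 and 0.26 without control array 3, and vanished with median centring (0.00). Figf read -0.87, -2.49, -2.54 and -3.11 against -2.56, -2.85, -3.38 and -2.12. Control array 1 stood far above the other arrays. Its difference of -0.47 (SE 0.494, adjusted p = 0.499) became -0.01 without that array. On the same array the mean level of 5 adipocyte markers was 2.17, while it lay between -4.99 and -1.42 on the other 7, and the mean of the leukocyte markers was 3.19, against 0.29 to 1.72. The part of these cells in the Figf value was not tested.

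Pgf, placental growth factor, binds Flt1 and is known for its rise in tumours and inflamed tissue. It read -0.12, 0.86, -0.31 and 0.78 on control arrays and 1.28, 0.97, 1.53 and 1.16 on PRH-labelled arrays. Every PRH-labelled value exceeded every control value, although control arrays 2 and 5 lay just below the PRH-labelled group. Means were 0.30 ± 0.60 and 1.24 ± 0.23. The difference of 0.94 (1.92-fold, SE 0.303, 95% interval 0.23 to 1.64) missed the threshold, with an adjusted p of 0.0562. The adjusted p was 0.0368 after quantile normalization, 0.0412 after cyclic loess and 0.0426 when only probes above background on all 8 arrays were tested. It was 0.0462 without control array 2 (difference 1.12). It was 0.0510 in the authors' normalized values, 0.0530 with normexp, 0.0855 with mouse number as a block and up to 0.117 in the other fits without 1 array. With median centring the difference was 0.47 (adjusted p = 0.330), and with spike-in centring 0.81 (adjusted p = 0.378). Most settings thus left Pgf uncalled.

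Among the receptors, Kdr had probes that moved in opposite directions. Its brighter probe read 3.09, 2.05, 1.93 and 2.29 on control arrays and 3.62, 3.40, 3.1 and 3.93 on PRH-labelled arrays. The groups met but did not overlap: control array 1 at 3.09 lay just below PRH-labelled array 3 at 3.1. The difference was 1.17 (2.25-fold, SE 0.295, 95% interval 0.49 to 1.86, adjusted p = 0.0243). The call was fragile: it was kept without control array 1 (1.42, adjusted p = 0.00393) and without PRH-labelled array 3 (1.31, adjusted p = 0.0330). It was lost without control array 2 (adjusted p = 0.0673), 3 (0.0580) or 5 (0.0627), and without PRH-labelled array 1 (0.0638), 2 (0.0525) or 5 (0.0640), at differences of 1.03 to 1.21.

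The dimmer Kdr probe, matched to the same RefSeq transcript, read 0.05, 0.51, -0.61 and -0.32 on control arrays and -0.54, -0.53, -0.69 and -0.53 on PRH-labelled arrays. The PRH-labelled values lay together (-0.57 ± 0.08) at the low end of the control range (-0.09 ± 0.49). The difference was -0.48 (SE 0.239, adjusted p = 0.177), and it was called as lower only with median centring (-0.95, adjusted p = 0.0314). Taken within each array, the brighter minus the dimmer probe was 3.04, 1.54, 2.54 and 2.61 on control arrays and 4.16, 3.93, 3.80 and 4.46 on PRH-labelled arrays, a quantity that no common scaling factor can shift. This gap was 1.65 larger on PRH-labelled arrays, with no overlap (exact two-sided permutation p = 0.0286, the smallest that 70 arrangements allow; adjusted p = 0.0857 over the 3 genes with 2 probes). The test was added after the values were seen, and a gene alone at the smallest p could not pass this adjustment. Of 3461 genes with 2 tested probes, 35.6% had probes of opposite sign and 3.55% had a gap between probes at least as large as that of Kdr. A direction for Kdr RNA as a whole therefore cannot be given: the mean of both probes differed by 0.34 (SE 0.221, adjusted p = 0.287).

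**Figure D2:**
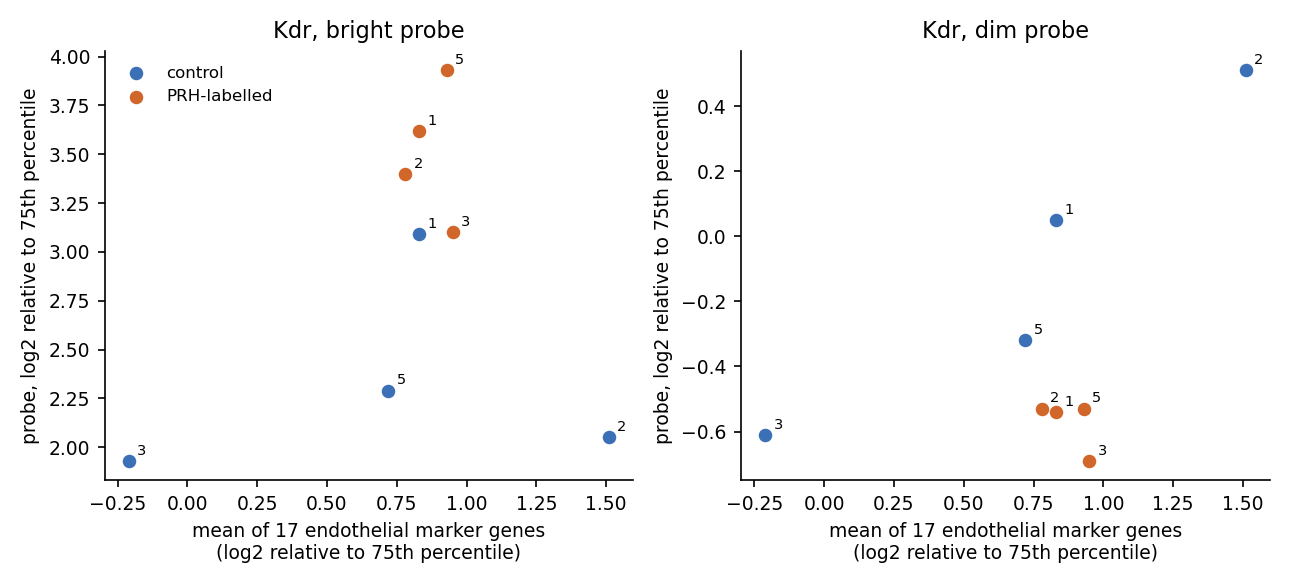
Log2 level relative to the 75th percentile of the brighter and the dimmer Kdr probe (vertical axis) against the mean level of 17 endothelial marker genes on the same array (horizontal axis), with 1 numbered point for each array. Control arrays are spread along the horizontal axis from -0.21 to 1.51, PRH-labelled arrays lie together between 0.78 and 0.95, and the PRH-labelled points are high at the brighter probe and low at the dimmer one.

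Flt1 and Flt4 showed no detectable difference. Flt1 read 1.54, 2.05, 1.61 and 1.94 on control arrays and 1.84, 1.78, 1.85 and 1.46 on PRH-labelled arrays. The groups overlapped almost fully and the difference was -0.06 (SE 0.170, 95% interval -0.45 to 0.34, adjusted p = 0.824). Flt4 read -3.08, -2.28, -4.22 and -2.45 against -3.20, -3.24, -3.04 and -2.91. Control array 3 was the lowest of the 8, and the difference was -0.09 (SE 0.406, 95% interval -1.04 to 0.85, adjusted p = 0.877). The Flt4 interval is the wider one, and sizeable differences of either sign lie within it.

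All neuropilin probes had negative differences, here and under each other scaling tried, and none of their probes passed the test. Nrp1, which binds Vegfa and presents it to Kdr, read -0.45, 0.38, -0.61 and -0.08 on control arrays and -0.82, -0.54, -0.68 and -0.91 on PRH-labelled arrays. Control array 3 lay within the PRH-labelled range, control array 1 just above it and arrays 2 and 5 further above. The difference was -0.55 (SE 0.230, 95% interval -1.08 to -0.01, adjusted p = 0.120). It was called as lower with median centring (-1.01, adjusted p = 0.0299), in the authors' normalized values (-0.84, adjusted p = 0.0183) and with normexp background correction (-0.80, adjusted p = 0.0163).

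Nrp2, the neuropilin tied to Vegfc and lymphatic vessels, read 3.93, 4.27, 4.66 and 4.69 at its brighter probe on control arrays and 4.04, 4.47, 4.25 and 4.09 on PRH-labelled arrays. The difference was -0.18 (SE 0.207, 95% interval -0.66 to 0.31, adjusted p = 0.548), with full overlap. At its dimmer probe Nrp2 read 1.63, 2.24, 2.47 and 2.69 against 1.78, 1.98, 1.67 and 1.67. Control array 1 was the lowest of the 8 there, and the other control arrays lay above every PRH-labelled one. The difference of -0.48 (SE 0.234, adjusted p = 0.170) was called without control array 1 (-0.69, adjusted p = 0.0150) and with median centring (-0.95, adjusted p = 0.0408).

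**Figure D3:**
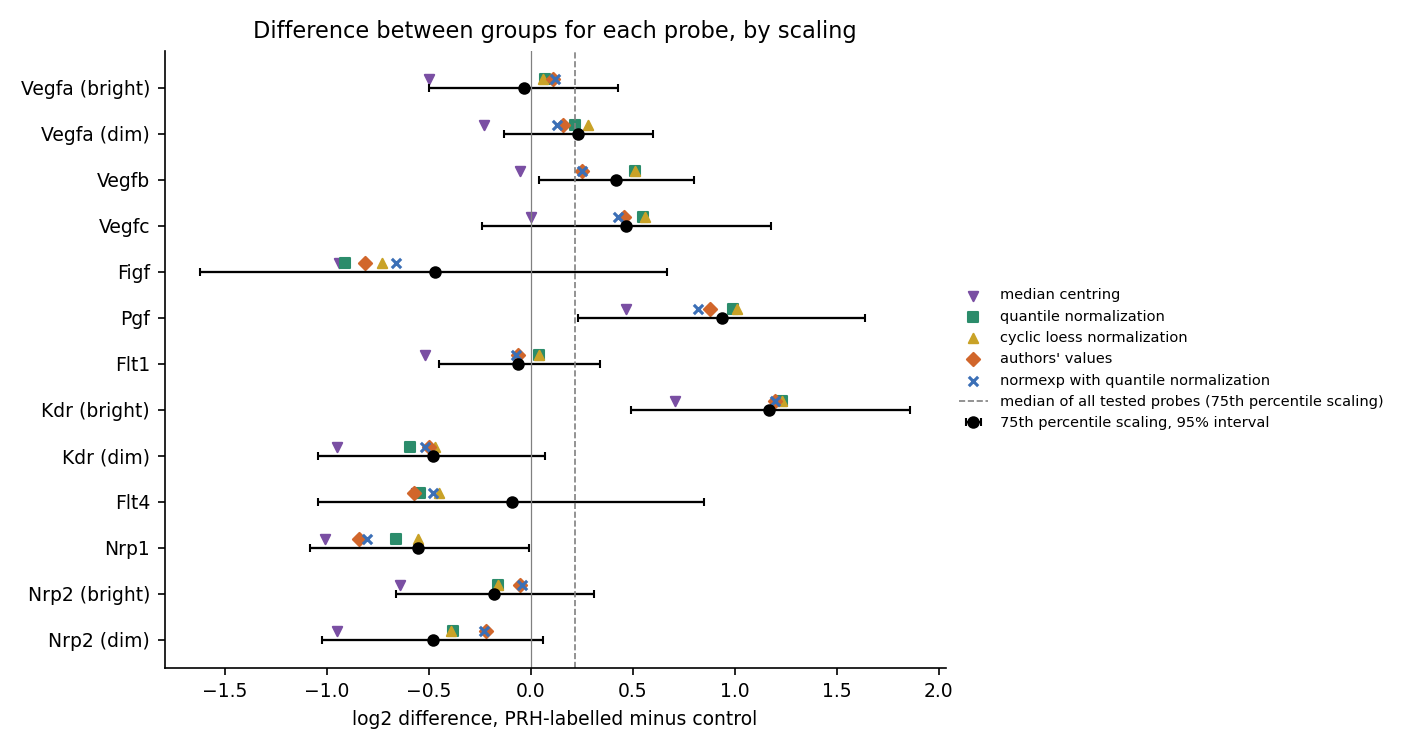
PRH-labelled minus control difference in log2 level (horizontal axis) for each of the 13 probes, with the 95% interval of the limma fit on values relative to the 75th percentile, and smaller marks for 5 other ways of scaling. The intervals of Vegfb, Pgf, Nrp1 and the brighter Kdr probe do not reach 0, and median centring places every probe lower than the 75th percentile does.

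The members varied more among control arrays than among PRH-labelled arrays. The SD was larger in the control group at 12 of 13 member probes, with a median ratio of 1.94, while it was larger at 62.6% of all tested probes, with a median ratio of 1.28. The 17 tested markers of endothelial cells varied the same way. Their mean level was 0.83, 1.51, -0.21 and 0.72 on control arrays and 0.83, 0.78, 0.95 and 0.93 on PRH-labelled arrays. Control array 3 was the lowest for these markers and also for Vegfc, Pgf, Flt4, Nrp1 and both Kdr probes among control arrays. Control array 2 was the highest for the markers and for both Flt receptors, Nrp1, Vegfc, Pgf and the dimmer Kdr probe. Vegfb ran the other way and was highest on control array 3 (2.15). Values minus their group means were correlated with those of the marker level over all arrays. The marker level varied far more among control arrays (SD 0.71) than among PRH-labelled arrays (SD 0.08). These correlations therefore rest mainly on the control arrays and say little about the PRH-labelled ones. The correlation was 0.92 at the dimmer Kdr probe but 0.17 at the brighter one. It was 0.91 for Flt4, 0.82 for Vegfc, 0.79 for Nrp1 and 0.73 for Pgf. It was -0.39 for Vegfb, and -0.48 and -0.31 at the brighter and dimmer Nrp2 probes. At the Vegfa, Figf and Flt1 probes it lay between -0.12 and 0.5. The group means of the marker level, 0.72 ± 0.71 and 0.87 ± 0.08, differed by 0.16 (exact two-sided permutation p = 0.629).

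To set the members beside the endothelial content of each array, the mean of the 17 markers was subtracted within the array. None of the 10 genes passed after adjustment over the 10. The smallest exact p that the arrays allow is 0.0286. An adjusted p under 0.05 thus required most of the 10 genes to reach that value together. Failing the adjustment therefore does not show that a gene was unchanged. Pgf minus the markers averaged -0.41 ± 0.47 on control arrays and 0.37 ± 0.19 on PRH-labelled arrays, a difference of 0.78 with no overlap (exact two-sided permutation p = 0.0286, adjusted p = 0.143). Nrp1 minus the markers averaged -0.91 ± 0.39 and -1.61 ± 0.21, a difference of -0.70 with no overlap (exact p = 0.0286, adjusted p = 0.143). Against the markers, Pgf was thus higher and Nrp1 lower on every PRH-labelled array than on any control array. The nearest values were close: Nrp1 was -1.32 on PRH-labelled array 2 and -1.28 on control array 1. Pgf was 0.19 on PRH-labelled array 2 and 0.05 on control array 5. The exact p is the smallest the design allows and is the same however narrow the gap. The brighter Kdr probe differed by 1.01 against the markers (exact p = 0.0571, adjusted p = 0.190; 0.65 without control array 2) and the dimmer one by -0.64 with no overlap (exact p = 0.0286). For the other genes the difference ran from -0.63 (Figf) to 0.31 (Vegfc), with exact permutation p-values of 0.200 to 0.657. These smaller differences leaned on single control arrays: Figf was -0.21 and Vegfc 0.12 without control array 1, Vegfb was 0.01 without control array 2 and Flt4 -0.07 without control array 5.

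No endothelial marker passed the limma test, either higher or lower, and 1 of 17 had an unadjusted p under 0.05. Of 16377 named genes read from their brightest probe, 23.9% passed. Of all tested probes, 39.2% had an unadjusted p under 0.05. Cldn5, a tight junction protein, differed by 0.98 (adjusted p = 0.237), Egfl7 by 0.75 (adjusted p = 0.15) and Icam2 by 0.63 (adjusted p = 0.0992). Pecam1, the junctional protein CD31, differed by 0.46 (adjusted p = 0.348) and Tek, the angiopoietin receptor, by -0.52 (adjusted p = 0.395). All 17 were well above background on all 8 arrays, so endothelial RNA was present in both groups. An eighteenth marker, Erg, did not pass the filter. Of 7 lymphatic markers, 4 were tested and none passed with limma, with 0 at an unadjusted p under 0.05. Lyve1 differed by -1.06 (adjusted p = 0.177), and Prox1 and Reln were above background on no array.

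Markers of other cells passed the test at single genes, named here after their values were seen, while other members of the same lists did not pass. The counts below stand beside 23.9% of 16377 named genes that passed at their brightest probe. Of 10 epithelial markers, the keratins Krt14 (1.93, adjusted p = 0.0188) and Krt18 (0.52, adjusted p = 0.0260) were higher on PRH-labelled arrays, while Krt8 differed by -0.44 (adjusted p = 0.0763). The Krt18 call was kept with 1 of 6 scalings and in 3 of 8 fits without 1 array. The mean of the list lay between 3.41 and 4.45 on control arrays and between 4.42 and 4.81 on PRH-labelled ones. Mrc1, 1 of 8 macrophage markers, was lower (-1.16, adjusted p = 0.0268), as were Pdgfra, 1 of 9 fibroblast markers (-0.73, adjusted p = 0.0115), and Pdgfrb, 1 of 8 pericyte markers (-0.66, adjusted p = 0.0376). The Pdgfrb call was kept in 1 of 8 fits without 1 array. In the same lists the macrophage marker Itgam differed by 0.89 (adjusted p = 0.0795), Thy1 by 0.29 (adjusted p = 0.191) and Acta2 by 0.44 (adjusted p = 0.174). Mylpf, 1 of 6 skeletal muscle markers, was higher (1.31, adjusted p = 0.00674) and kept its call with 6 of 6 scalings and in 8 of 8 fits without 1 array. Spike-in centring is not among the 6, and with it the limma adjusted p of Mylpf was 0.123. Their part in the members' values was not tested.

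Promoters are shown for Kdr, the gene with the called probe, for Pgf, next to the threshold, and for Vegfa and Flt1, the ligand and receptor most often discussed with PRH. Each is the 250 bases before the RefSeq start in build GRCm38.p6, 5′ to 3′ on the gene's strand: Kdr at chr5:75978456-75978705 (minus strand), Pgf at chr12:85177314-85177563 (minus strand), Vegfa at chr17:46032378-46032627 (minus strand) and Flt1 at chr5:147726012-147726261 (minus strand). Capitals mark the homeodomain core ATTA and the hypoxia element cores ACGTG and GCGTG, searched on both strands; no match in 1 window overlaps another kind.
Kdr: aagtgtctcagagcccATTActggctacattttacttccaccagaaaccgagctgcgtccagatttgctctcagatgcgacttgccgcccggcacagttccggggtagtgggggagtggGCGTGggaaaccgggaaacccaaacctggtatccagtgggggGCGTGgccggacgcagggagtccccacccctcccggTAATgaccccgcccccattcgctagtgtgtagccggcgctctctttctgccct
Pgf: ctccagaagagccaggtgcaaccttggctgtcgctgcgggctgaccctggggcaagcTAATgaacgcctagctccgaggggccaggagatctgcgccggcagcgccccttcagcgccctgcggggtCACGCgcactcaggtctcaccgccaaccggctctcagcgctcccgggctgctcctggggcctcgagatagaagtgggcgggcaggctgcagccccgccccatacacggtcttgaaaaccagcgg
Vegfa: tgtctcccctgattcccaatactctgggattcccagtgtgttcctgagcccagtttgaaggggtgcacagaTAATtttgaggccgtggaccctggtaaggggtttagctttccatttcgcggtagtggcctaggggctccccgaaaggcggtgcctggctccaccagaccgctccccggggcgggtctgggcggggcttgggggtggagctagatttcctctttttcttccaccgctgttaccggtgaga
Flt1: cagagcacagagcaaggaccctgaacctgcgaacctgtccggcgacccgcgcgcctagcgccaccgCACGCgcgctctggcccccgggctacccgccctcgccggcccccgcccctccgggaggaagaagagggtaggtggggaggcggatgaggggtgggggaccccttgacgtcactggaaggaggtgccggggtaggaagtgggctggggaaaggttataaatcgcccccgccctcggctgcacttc
Kdr holds the homeodomain core 234 and 53 bases before the start and the hypoxia core at 131 and 89. Pgf holds 1 of each, at 193 and 124, Vegfa the homeodomain core alone at 179, and Flt1 the hypoxia core alone at 184. Over the 10 members, 4 held the homeodomain core, 1 its longer form ATTAA and 6 the hypoxia core. The shares among all 32851 mouse promoters of this length were 54.9%, 24.9% and 38.6%. A match is a run of letters and not a known site, and a window without one says only that these letters are not in it.

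Genes that control, carry and answer VEGF signals were read from 4 lists, and no test compares these lists with the family. Each gene was read from its brightest probe, where 23.9% of 16377 named genes were called, 10.7% as higher and 13.1% as lower, with a median difference of -0.02. The 6 scalings counted below, and above for the marker lists, are the 75th percentile, median centring, quantile, cyclic loess, normexp and the authors' values. With spike-in centring, where 3 of all tested probes were called, 0 genes of these lists were. Of 14 tested genes that act on the ligands, 2 were higher and 3 lower, with a median of -0.39. Hif1a, the oxygen-sensing factor that drives Vegfa, read 1.85, 2.55, 2.20 and 2.30 on control arrays and 1.58, 1.62, 1.35 and 1.27 on PRH-labelled arrays. It fell by 0.77 (SE 0.180, adjusted p = 0.0188) with no overlap. Vhl, which marks Hif1a for destruction, fell by 0.86 (SE 0.158, adjusted p = 0.00933), and Egln1, the prolyl hydroxylase that tags it, fell by 0.77 (SE 0.197, adjusted p = 0.0262). The Hif1a call was kept in 6 of 8 fits that left out 1 array, the Vhl call in 8 and the Egln1 call in 2. Other genes that restrain Hif1a were not called: Egln2 differed by 0.10 (adjusted p = 0.637), Egln3 by -0.32 (adjusted p = 0.398) and Hif1an by -0.06 (adjusted p = 0.848).

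Epas1, the hypoxia factor prominent in endothelial cells, was higher at its brightest probe (0.97, SE 0.184, adjusted p = 0.0101), while its other 2 tested probes differed by -0.61 and -0.08. Adamts3, a protease that activates Vegfc, was higher (0.98, SE 0.252, adjusted p = 0.0258), but was above background on 1 of 4 control arrays and was called with 1 of the 6 scalings only.

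Of 40 genes that carry the signal inside the cell, 1 was higher and 11 were lower, 30.0% called and 27.5% lower, with a median of -0.32. Cbl, the ubiquitin ligase that sends activated receptors for degradation, read -1.03, -0.92, -1.13 and -1.42 on control arrays and -2.67, -2.70, -2.70 and -2.96 on PRH-labelled arrays. It fell by 1.64 (SE 0.151, adjusted p = 0.00674). Fyn, a Src family kinase, fell by 1.42 (SE 0.206, adjusted p = 0.00674), and Pik3ca, the catalytic subunit of PI3-kinase, fell by 1.41 (SE 0.210, adjusted p = 0.00682). Prkcb, a protein kinase C, fell by 1.25 (SE 0.211, adjusted p = 0.00776). These 4 were called with each of 6 scalings and in each of 8 fits without 1 array. The single higher gene, named after its value was seen, was Src (0.62, adjusted p = 0.0180), which was called with 1 of the 6 scalings. The lower genes include a brake on the receptors (Cbl) beside kinases that pass the signal on. Second probes, looked up after the values were seen, went both ways. Of the lower genes, Nfatc2 (-0.76) differed by 1.20 at its other probe and Mapk14 (-0.46) by 0.11, while Prkcb differed by -0.70 there. The remaining lower genes had 1 probe each. Of the uncalled genes, Plcg1 differed by 0.07 and 1.39 at its probes and Cdc42 by 0.03 and -0.66. With mouse number as a block, 1 gene was higher and 12 lower: the call of Mapk14 was lost (adjusted p = 0.0513), and Ppp3r1 (-0.82, adjusted p = 0.0251) and Shb (-0.59, adjusted p = 0.0307) were gained.

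Of 19 tested genes known to respond to VEGF in endothelial cells, 0 were higher and 3 lower with limma, with a median of -0.24 and 5 at an unadjusted p under 0.05. Icam1, a leukocyte adhesion molecule, read -0.71, -0.80, -0.36 and -1.16 on control arrays and -1.48, -1.91, -2.35 and -2.04 on PRH-labelled arrays, and fell by 1.19 (SE 0.237, adjusted p = 0.0116). Ets1, a transcription factor of migrating endothelium, fell by 1.02 at its brightest probe (adjusted p = 0.00814), with -0.16 at its other probe. Mmp14, a membrane-bound protease, fell by 0.52 (adjusted p = 0.0312), and that call was lost with mouse number as a block (adjusted p = 0.0522) and kept in 1 of 8 fits without 1 array. Dll4, the Notch ligand of tip cells, differed by 0.84 (adjusted p = 0.0673). With the block, Egr3, an early transcription factor, was called as higher (1.07, limma adjusted p = 0.0103 against 0.288 without the block). That made the count 1 higher and 2 lower. Egr3 was dim (means -4.82 on control and -3.75 on PRH-labelled arrays) and above background on 3 of 4 control arrays. Without the block it was called with 0 of the 6 scalings and in 0 of 8 fits without 1 array.

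Of 12 tested genes in a list of semaphorins, plexins and the adaptor Gipc1, 1 was lower. Plxna4, a signalling partner of Nrp1, read -2.60, -1.49, -1.45 and -2.38 on control arrays and -3.81, -3.38, -3.67 and -3.56 on PRH-labelled arrays, and fell by 1.62 (SE 0.293, adjusted p = 0.00904). Plxna1 (1.04, adjusted p = 0.0734), Plxnd1 (0.68, adjusted p = 0.0649) and Sema3f (0.56, adjusted p = 0.0991) had positive differences that did not pass. With mouse number as a block Plxna1 was called as higher (adjusted p = 0.0473).

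**Figure D4:**
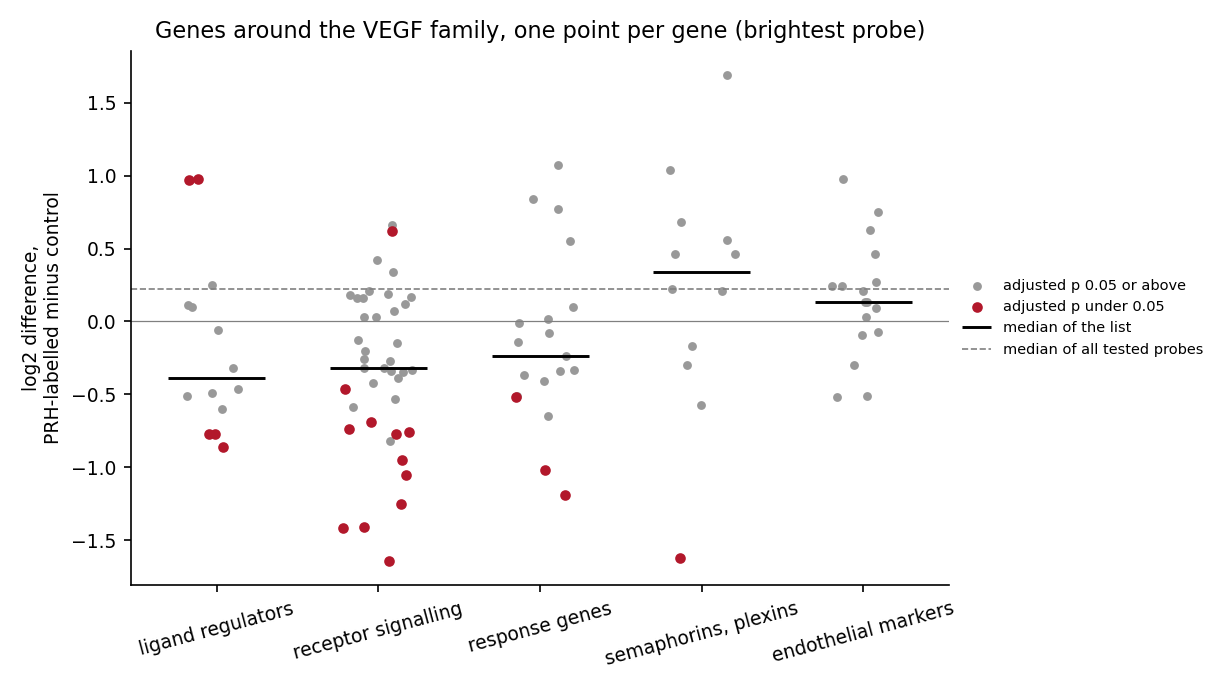
PRH-labelled minus control difference in log2 level (vertical axis) of each tested gene, read from its brightest probe, in 5 lists of the VEGF pathway and of endothelial cells, with a bar for the list's median and a dashed line for the median of all tested probes. Red points had an adjusted p under 0.05, and most of them lie at negative values in the signalling list, while none lies in the endothelial list.

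Likeness of pattern was measured as the correlation of a gene's values, each minus its group mean, over the 8 arrays against each of 16376 other named genes. Kdr at its brighter probe was most like Ltc4s (r = 0.998), Ppp1r12b (0.983) and H2-M1 (0.977). Flt1 was most like Ptcd1 (0.991), Vegfa like Pomt2 (0.994), Flt4 like Gadd45a (0.994), Nrp1 like Rnu12 (0.990) and Nrp2 like Rex1bd (0.979). Between 10 and 77 genes exceeded 0.95 for these 6 members, fewest for Kdr and most for Flt4. These values rest on 8 arrays that share a slide and a scan, and the highest of so many correlations is high by selection.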

How the data were processed

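The deposited values are linear intensities per spot, background-corrected by Agilent Feature Extraction 10.7.3.1 per the file headers; the submitters' processing notes name version 9.1. The deposited series table holds the authors' normalized intensities, whose normalization is not described further in the sources used here, and served as an alternative. Control spots were left out, and an outlier spot was left out only where its probe had another spot that was no outlier. Spots of a probe were averaged, and log2 intensity minus the array's 75th percentile was used. That percentile was taken over all non-control spots, outliers included. Probes well above background on at least 4 of 8 arrays were tested with limma 3.58.1 in R 4.3.3 (group alone, two-sided, Benjamini-Hochberg over 39463 probes, threshold 0.05), and the script was checked on simulated data. Single values were compared by exact permutation over 70 arrangements. P-values measure the spread between 4 arrays a group, whose number limits the precision.

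The files hold no symbols. Names came from RefSeq accessions and a gene table of GRCm38.p6 (26582 of 55681 probes named), while the array's own design is on mm9. The text names all 10 members, up to 5 genes of smallest p in each pathway, endothelial and lymphatic list, and others as said; 1 gene that this rule names is not reported here. The members and lists were chosen with earlier results of these data known.

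Mouse numbers are shared by the groups and follow slide rows. Deviations of same-numbered arrays correlated at 0.200, 0.422, 0.651 and 0.257 for mice 1, 2, 3 and 5. For mice 1, 2 and 3 each array was most like its same-numbered array in the other group. For mouse 5 neither array was. A pairing of mice and an effect of slide row cannot be told apart here. The numbers were taken as pairs and fitted as a block as an alternative only. Other alternatives were median centring, quantile, cyclic loess and spike-in scaling, normexp (offset 50; on the median signal, since the files used hold no mean signal), other filters, averaging the probes of a gene and leaving out each array. 7 spike-in probes were used.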

Additional observations from a re-analysis of the deposited data

Results flagged for a closer look

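Of 48 groups of 4 arrays checked for a lone array, 2 were flagged, and chance flags about 1 in 20. At the dimmer Vegfa probe, control array 1 lay at -0.25 while the other control arrays lay between 0.04 and 0.10, a gap of 0.845 of the group's range. At the dimmer Kdr probe, PRH-labelled array 3 lay at -0.69 while the other PRH-labelled arrays lay between -0.54 and -0.53, a gap of 0.919 of a narrow range.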

How the results depend on the processing

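The count of called member probes was 1 without the filter, with the brightest probe of a gene and with mouse number as a replicate block. It was 3 with median centring (all lower), 3 with quantile normalization and 3 with cyclic loess (all higher). It was 2 in the authors' values, 2 with normexp, 2 with the filter on all 8 arrays, 0 with spike-in centring and 0 when the probes of a gene were averaged. Of all 39463 tested probes, median centring called 12977, quantile 10692, cyclic loess 10138, the authors' values 9875 and normexp 10061. The filter on all 8 arrays called 9992 of 31742, and no filter 9691 of 55681. Averaging probes called 8640 of 34543, and the brightest probe of a gene 8934 of 34543. The count of called member probes ran from 0 to 2 when 1 array was left out. The brighter Kdr probe kept its direction in all of these and was not called with median centring (0.71, adjusted p = 0.0639) or spike-in centring (1.04, adjusted p = 0.183). The block left every member on the same side of the threshold (Kdr adjusted p = 0.0167). Over all tested probes the block called 13560, spike-in centring 3, and fits without 1 array 6591 to 13355, lowest without control array 5; the count fell below the 10327 of the full set by more than 1.5 times also without control array 2 (6707), PRH-labelled array 1 (6664) and PRH-labelled array 5 (6865). Calls were higher in 61.5% by the 75th percentile, 24.0% with median centring, 41.8% with quantile, 47.7% with cyclic loess, 40.4% in the authors' values and 39.0% with normexp.

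Of 244 alternatives for single probes, 208 kept direction and side, 12 became called, 8 lost the call and 16 changed sign. The brighter Vegfa probe turned to 0.07 with quantile normalization, 0.06 with cyclic loess, 0.11 in the authors' values and 0.12 with normexp, and ran from -0.19 to 0.07 without 1 array. The dimmer Vegfa probe was -0.23 and Vegfb -0.05 with median centring. Flt1 was 0.04 with quantile normalization and 0.04 with cyclic loess, and ran from -0.14 to 0.04 without 1 array, and Flt4 from -0.50 to 0.15. Against the endothelial markers, the dimmer probe gave 0.08 for Vegfa and -0.64 for Kdr, and ranges without 1 array were -0.39 to 0.10 for Vegfa, -0.39 to 0.04 for Flt1 and -0.64 to 0.07 for Nrp2. The gap between the Kdr probes was 1.65 to 1.82 over 6 scalings and 1.36 to 1.86 without 1 array, an alternative chosen after seeing the data. The causes of these changes were not tested.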
